A study of Mus musculus with 8 samples.

Results

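AMP-activated protein kinase (AMPK) is the energy sensor that LKB1 switches on, and the 8 genes described here encode 6 of its subunits and 2 members of the folliculin complex that binds it. They were taken by exact symbol from the count tables: Prkaa1 and Prkaa2 (catalytic alpha), Prkab1 and Prkab2 (scaffold beta), Prkag1 and Prkag2 (nucleotide-sensing gamma), Flcn and Fnip1. All 8 were among the 24421 genes listed, and 7 of the 8 passed the count filter and were tested with 10396 genes in all.

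The study compared LKB1-deficient with LKB1 wild type (control) CD8+ T cells of the mouse, 4 libraries each, by strand-specific 3′ RNA-seq. Naive cells of each genotype had been activated on plates coated with anti-CD3 and anti-CD28 antibodies, 48 hours in all, which stand in for antigen and costimulation. The strain, sex and age of the mice, the deleted part of Stk11 (the LKB1 gene) and the driver of the deletion were not stated in the labels. Nor do the labels say whether replicates came from separate mice, so the p-values reflect the spread among these libraries alone, which may be technical.

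AMPK works as a heterotrimer of an alpha, a beta and a gamma subunit. When ATP falls, AMP and ADP bind the gamma subunit, and LKB1 phosphorylates the activation loop of the alpha subunit. In T cells the calcium-dependent kinase CaMKK2 can phosphorylate the same site after T cell receptor stimulation. Folliculin, encoded by Flcn, works at the lysosome with FNIP1 or FNIP2 as an activator of GTP hydrolysis by RagC and RagD, which controls mTORC1 and the transcription factors TFEB and TFE3. FNIP1 binds AMPK and is also one of its substrates.

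Gene counts came to between 3454388 and 6356125 in the LKB1-deficient libraries and between 7090252 and 12211930 in the control libraries. On the first principal component of log2 expression, which held 56.4% of the variance, LKB1-deficient replicates 2 and 4 scored 51.7 and 54.4. LKB1-deficient replicates 1 and 3 scored 12.5 and 6.79, and the control scores ran from -37.9 to -21.7. Values that rest on LKB1-deficient replicates 2 and 4 are therefore also given without them. Stk11 itself was at 79.8 ± 19.1 CPM (gene counts relative to the TMM-scaled library total) in LKB1-deficient and 81.9 ± 13.9 CPM in control cells (SD, n = 4 each), and 3′ tags cannot check the label where the deleted part is not known. The CD8 T cell markers were all detected, but their summed level, over 7 genes, was 2077 to 3213 CPM in LKB1-deficient and 3767 to 4229 CPM in control libraries. Of the 7, Cd8a, Cd3d and Cd3g were called lower and the other 4 did not pass. Among those 4, Cd8b1 and Lck had negative log2 fold changes (-0.48 and -0.32). Cd3e and Cd2 went the other way (0.32 and 0.24). Marker lists of CD4 T, B, myeloid, mast and muscle cells each summed to at most 14.3 CPM in any library. The NK cell list came to 83.7 to 153.9 CPM in LKB1-deficient and 66.3 to 116.2 CPM in control libraries, nearly all of it Eomes, which activated CD8 T cells also express, while Klra8 was at 0. Klrb1c of that list was at 0.563, 2.04, 0.630 and 1.62 CPM across LKB1-deficient replicates 1 to 4, above the 0 to 0.227 CPM of the controls, and was too low to test.

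Fnip1 and Flcn, the tested members whose log2 CPM varied most and least over the 8 libraries, lie on chromosome 11, and the bases upstream of their RefSeq starts (GRCm38.p6) are printed to show how the promoters of these partners differ. They were searched for CACGTG, the E-box bound by TFEB, TFE3 and MYC, and TGACGTCA, the full cyclic AMP response element bound by CREB. Both motifs read the same on either strand and neither overlaps the other here; capitals mark a match. The second motif was chosen after the sequences were seen.
Fnip1, chr11:54437929-54438178, plus strand: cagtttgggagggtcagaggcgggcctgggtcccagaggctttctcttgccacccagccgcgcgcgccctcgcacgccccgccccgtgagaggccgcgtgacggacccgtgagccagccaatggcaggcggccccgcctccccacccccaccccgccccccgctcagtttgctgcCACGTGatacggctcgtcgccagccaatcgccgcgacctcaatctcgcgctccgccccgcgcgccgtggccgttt
Flcn, chr11:59810040-59810289, minus strand: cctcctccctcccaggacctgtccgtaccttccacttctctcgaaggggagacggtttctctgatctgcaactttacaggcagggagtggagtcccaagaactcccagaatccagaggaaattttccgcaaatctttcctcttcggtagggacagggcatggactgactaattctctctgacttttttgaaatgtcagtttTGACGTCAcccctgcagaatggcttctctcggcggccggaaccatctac
The Fnip1 window held 1 E-box, beginning 75 bases before the start, and the Flcn window held 1 cyclic AMP response element, beginning 49 bases before the start. The bases G and C made up 73.6% of the Fnip1 window and 52.0% of the Flcn window. Of 32851 windows of 250 bases over all genes in the RefSeq table, 6.02% held the E-box and 1.55% held the cyclic AMP response element. All 8 members matched a window, 10 windows in all because Prkag2 has 3 starts, and no other member's window held either motif. A match describes these letters only.

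The first question was which isoforms activated CD8+ T cells express. The alpha subunit mRNA was almost entirely Prkaa1, the beta mRNA mostly Prkab1 and the gamma mRNA mostly Prkag1, in LKB1-deficient and control libraries alike. Prkaa2, the alpha isoform best known from skeletal and heart muscle, had 5 counts in all LKB1-deficient libraries against 694 of Prkaa1, and 8 counts in all control libraries against 1370 of Prkaa1. By library, Prkaa2 (chromosome 4, 105029874 to 105109890, minus strand, GRCm38) had 2, 0, 3 and 0 counts across LKB1-deficient replicates 1 to 4, and 2, 1, 1 and 4 counts across control replicates 1 to 4, too few to test. Its share of alpha counts was 0.715% in LKB1-deficient cells (5 of 699, exact 95% binomial interval 0.233% to 1.66%) and 0.581% in control cells (8 of 1378, 0.251% to 1.14%), intervals that cover counting error only. The mean of the library shares was 0.7065% in LKB1-deficient cells, 1.41% without LKB1-deficient replicates 2 and 4 and 0.40% without replicate 1, and 0.660% in control cells, or 0.373% without control replicate 4. Prkaa2 had no count in LKB1-deficient replicates 2 and 4, which at 132 and 194 alpha counts allows a share of up to 2.76% and 1.88% by the exact interval. Prkag3, the gamma isoform of skeletal muscle, had 1 count over all 8 libraries.

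Prkab2 took 18.2%, 35.7%, 33.3% and 26.9% of beta counts in LKB1-deficient replicates 1 to 4, against 28.8%, 26.2%, 26.2% and 25.7% in control replicates 1 to 4. The LKB1-deficient libraries lay on either side of the controls, with means of 28.5% ± 7.84 and 26.7% ± 1.38 (SD, n = 4 each), and each of them rests on 126 to 237 beta counts. Prkag2 took 16.6%, 15.6%, 24.3% and 15.9% of gamma counts in LKB1-deficient replicates 1 to 4, and 18.8%, 18.5%, 22.3% and 17.6% in control replicates 1 to 4. These overlapped as well, with means of 18.1% ± 4.17 in LKB1-deficient and 19.3% ± 2.06 in control cells (SD, n = 4 each). In each group the highest Prkag2 share was that of replicate 3, although same-numbered libraries are not paired in the labels.

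**Figure D1:**
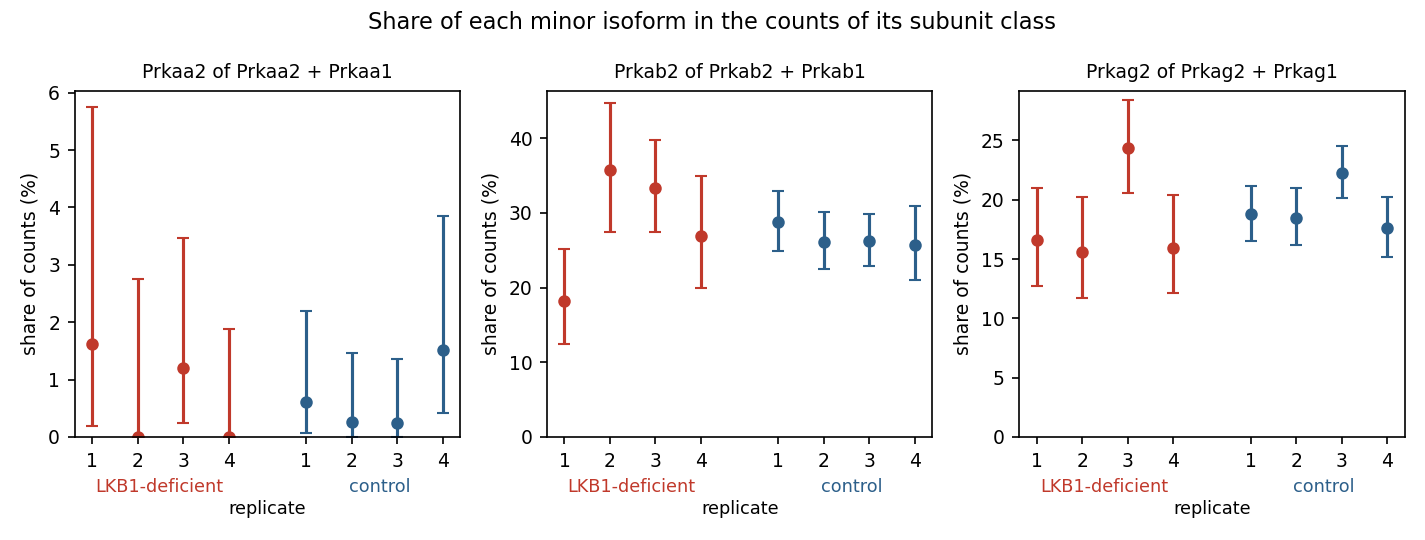
Percent of the counts of each AMPK subunit class taken by its less abundant isoform in every library (vertical axes from 0, LKB1-deficient libraries in red to the left of control libraries in blue, bars are exact 95% binomial intervals). Prkaa2 stays at or under 1.63% in all 8 libraries, while Prkab2 lies between 18.2% and 35.7% and Prkag2 between 15.6% and 24.3%, with the groups overlapping in each panel.

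Across genes, levels can be set side by side in 2 ways. A 3′ tag comes from the end of a transcript rather than its whole length, so CPM is the more direct scale, although PCR copies may be counted. CPM per kilobase of the longest annotated transcript shows what a length correction would do. The group differences of some members did depend on transcript length, as the values with that trend removed show below. On the CPM scale the order in LKB1-deficient cells was Fnip1, Prkag1, Prkaa1, Prkab1, Flcn, Prkag2, Prkab2 and Prkaa2. In control cells it was Prkag1, Fnip1, Prkab1, Prkaa1, Flcn, Prkag2, Prkab2 and Prkaa2. In LKB1-deficient cells the ranges of Fnip1 and Prkag1, of Prkaa1 and Prkab1 and of Prkab1 and Flcn overlapped. In control cells those of Prkab1 and Prkaa1 and of Flcn and Prkag2 overlapped. Within libraries, Flcn was above Prkag2 in each of the 4 control libraries, by 1.13 to 1.48 times. The order of the other overlapping pairs varied between libraries. Averaged over the 8 libraries, Prkag1 at 77.1 CPM was above 72.2% of tested genes and Prkab2 at 11.4 CPM above 25.7%.

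Per kilobase, Prkag1 stood clear of all other members in both groups, at 43.1 ± 5.32 CPM per kb in LKB1-deficient and 50.3 ± 7.41 CPM per kb in control cells, with a longest transcript of 1652 bases. The rest followed as Prkab1, Fnip1, Prkaa1, Flcn, Prkag2, Prkab2 and Prkaa2 in LKB1-deficient cells, and with Flcn ahead of Prkaa1 in control cells. The ranges overlapped from Prkab1 down to Flcn in LKB1-deficient cells, and from Flcn down to Prkag2 in control cells. By level, Prkab1 stood at 13.5 ± 2.55 and 15.4 ± 1.18 CPM per kb, and Prkaa1 stood at 8.79 ± 1.70 and 6.68 ± 0.399 CPM per kb in LKB1-deficient and control cells (SD, n = 4 each). The scale did not change which isoform led each class. Prkab1 exceeded Prkab2 by 2.75 ± 1.23 times in LKB1-deficient and 2.75 ± 0.186 times in control cells by CPM, and by 6.60 ± 2.94 and 6.59 ± 0.444 times per kilobase. Prkag1 exceeded Prkag2 by 4.71 ± 1.08 and 4.23 ± 0.516 times by CPM, and by 9.49 ± 2.17 and 8.52 ± 1.04 times per kilobase.

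The second question was whether loss of LKB1 changed these transcripts. None of the 7 tested members passed an adjusted p of 0.05 in edgeR's quasi-likelihood test, while 22.5% of all tested genes did (12.4% higher and 10.1% lower). Unadjusted p-values under 0.05 were found for Prkaa1 and Fnip1, 2 of 7, against 39.3% of all tested genes. DESeq2 called 1 member, Prkaa1, and limma-voom none. Of the 2337 genes called in all, 1286 were higher and 1051 lower; total count scaling gave 829 higher and 1576 lower and upper quartile scaling 1023 and 1446, and the median over all tested genes was a log2 fold change of 0.0042 with TMM, -0.16 with total count and -0.096 with upper quartile scaling. Without LKB1-deficient replicates 2 and 4 the calls fell to 162 higher and 98 lower. In these bulk samples fewer cells that express a gene and less of its RNA per cell cannot be told apart.

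**Figure D2:**
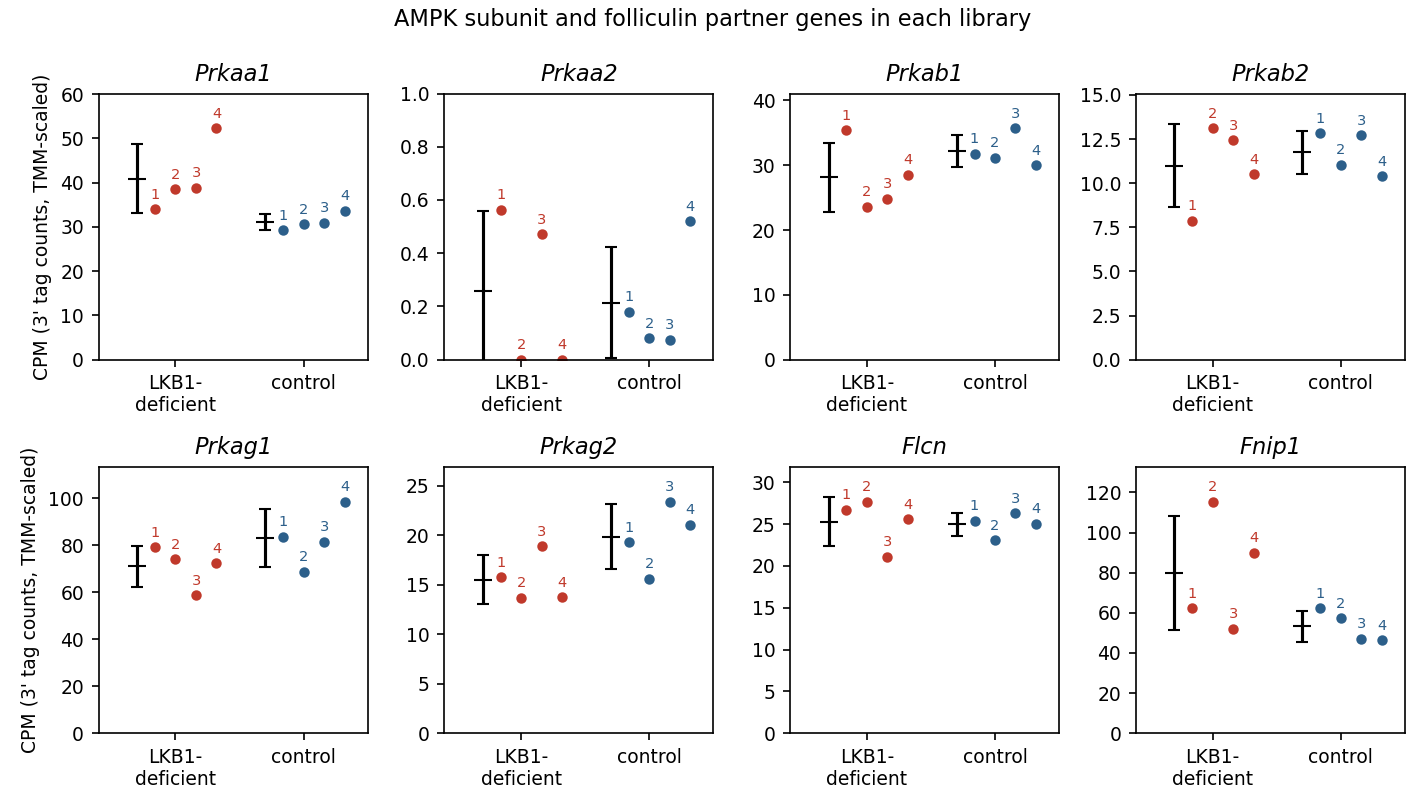
CPM of each member in every library (vertical axes from 0, points numbered by replicate, LKB1-deficient in red to the left of control in blue, black bars are mean ± SD with n = 4, cut at 0 for Prkaa2). The Prkaa1 points of the groups do not overlap, Fnip1 is highest in LKB1-deficient replicates 2 and 4, and the other members overlap between groups.

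Prkaa1, encoding the catalytic alpha1 subunit that LKB1 phosphorylates (chromosome 15, 5143861 to 5181899, plus strand, in GRCm38 as are all positions of members below), was at 34.0, 38.5, 38.9 and 52.3 CPM across LKB1-deficient replicates 1 to 4, and 29.2, 30.6, 31.0 and 33.6 CPM across control replicates 1 to 4. All LKB1-deficient libraries lay above all controls, the lowest by a narrow margin, and this held for 26.1% of tested genes in one direction or the other. This is a log2 fold change of 0.40 ± 0.15 (SE, adjusted p = 0.0736), or a ratio of 1.32 with a 95% interval of 1.05 to 1.65 that is not adjusted for the number of genes. The groups overlapped with upper quartile and with total count scaling. The adjusted p was 0.0472 without LKB1-deficient replicate 1 and 0.0468 with DESeq2, and ranged to 0.329 over the alternatives, the highest being without LKB1-deficient replicates 2 and 4 (log2 fold change 0.24). The log2 fold change was 0.22 with total count scaling, 0.26 without LKB1-deficient replicate 4 and 0.26 with the trend on transcript length removed.

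Prkab1, encoding the beta1 scaffold that joins the alpha and gamma subunits (chromosome 5, 116013586 to 116024508, minus strand), was at 35.4, 23.6, 24.9 and 28.6 CPM across LKB1-deficient replicates 1 to 4, and 31.8, 31.2, 35.7 and 30.0 CPM across control replicates 1 to 4. LKB1-deficient replicates 2, 3 and 4 lay below all controls and replicate 1 among them, with a log2 fold change of -0.20 ± 0.15 (SE, adjusted p = 0.344). It was -0.33 without LKB1-deficient replicate 1, -0.13 without replicate 2, -0.10 without both replicates 2 and 4, -0.36 with total count scaling and -0.059 with the trend on transcript length removed, and not called in any of these. Prkab2, encoding the beta2 scaffold (chromosome 3, 97658193 to 97673812, plus strand), was at 7.88, 13.1, 12.4 and 10.5 CPM across LKB1-deficient replicates 1 to 4, against 12.8, 11.0, 12.7 and 10.4 CPM across control replicates 1 to 4. Only LKB1-deficient replicate 1, with 28 counts, lay below the control range, and the log2 fold change of -0.093 ± 0.18 (SE, adjusted p = 0.736) turned to 0.032 without that library and to 0.075 in the libraries whose sample identifiers start with EU.

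Prkag1, encoding the gamma1 subunit that binds AMP, ADP and ATP (chromosome 15, 98812797 to 98831521, minus strand), was at 79.3, 74.0, 58.7 and 72.5 CPM across LKB1-deficient replicates 1 to 4, and 83.6, 68.7, 81.6 and 98.6 CPM across control replicates 1 to 4. The groups overlapped because control replicate 2 was low, and the log2 fold change of -0.23 ± 0.15 (SE, adjusted p = 0.274) became -0.018 once the trend on transcript length was removed. It was -0.14 when control replicate 4 was left out and -0.15 when LKB1-deficient replicate 3 was left out. The annotation places an antisense transcript over 950 exonic bases of Prkag1, and the labels do not say whether strand was used in counting. That transcript is not among the genes listed under its annotated symbol, B130046B21Rik.

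Prkag2, encoding the gamma2 subunit (chromosome 5, 24862744 to 25100642, minus strand), was at 15.8, 13.7, 18.9 and 13.7 CPM across LKB1-deficient replicates 1 to 4, and 19.3, 15.6, 23.4 and 21.04 CPM across control replicates 1 to 4. LKB1-deficient replicates 2 and 4 lay below all controls and the other libraries overlapped. The log2 fold change of -0.34 ± 0.17 (SE, adjusted p = 0.163) was negative under all 20 alternatives, from -0.50 with total count scaling to -0.18 without LKB1-deficient replicates 2 and 4, and its adjusted p was at least 0.0733 in each. Antisense transcripts are annotated over 795 and 142 exonic bases of Prkag2 as well. The gene with the 142-base overlap, Prkag2os1, had no count in any library, and the other, Prkag2os2, is not among the genes listed.

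Summed over isoforms, alpha mRNA was 41.2 ± 7.69 CPM in LKB1-deficient and 31.3 ± 2.03 CPM in control cells, beta mRNA 39.1 ± 2.99 and 43.9 ± 3.47 CPM, and gamma mRNA 86.7 ± 7.18 and 103.0 ± 14.5 CPM (SD, n = 4 each). The 6 genes together came to 166.9 ± 10.5 CPM in LKB1-deficient and 178.2 ± 15.6 CPM in control cells, with overlapping libraries. The ratio of gamma to alpha CPM was 2.75, 2.28, 1.97 and 1.65 in LKB1-deficient replicates 1 to 4, and 3.50, 2.75, 3.38 and 3.50 in control replicates 1 to 4. The lowest control, replicate 2, and the highest LKB1-deficient library, replicate 1, met at the same rounded value, so the groups just overlapped.

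**Figure D3:**
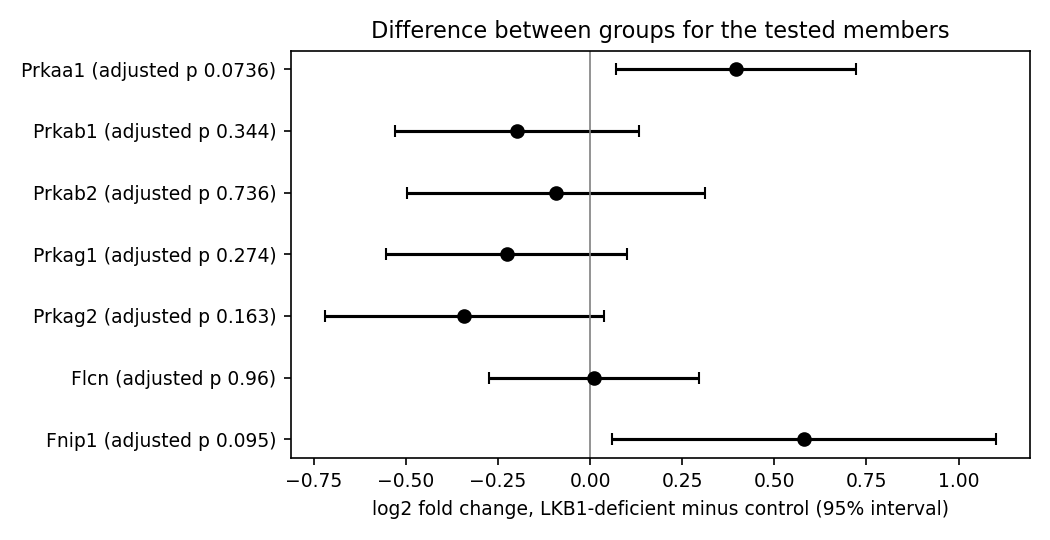
Log2 fold change, LKB1-deficient minus control, with its unadjusted 95% interval for the 7 tested members (horizontal axis, vertical line at 0; adjusted p beside each name). The intervals of Prkaa1 (0.070 to 0.72) and Fnip1 (0.060 to 1.1) lie above 0 and those of the other 5 members span 0, while no adjusted p is under 0.05.

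Flcn, encoding folliculin (chromosome 11, 59791408 to 59810016, minus strand), was at 26.7, 27.7, 21.1 and 25.6 CPM across LKB1-deficient replicates 1 to 4, against 25.4, 23.1, 26.3 and 25.1 CPM across control replicates 1 to 4. The groups lay on top of each other. This is a log2 fold change of 0.011 ± 0.13 (SE, adjusted p = 0.960), or a ratio of 1.01 with a 95% interval of 0.827 to 1.23, and its sign turned under 11 of the 20 alternatives, upper quartile and total count scaling among them. A change beyond that interval was not seen, whereas one within it could not be told from 0 at this depth.

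Fnip1, encoding the folliculin-interacting protein that AMPK phosphorylates (chromosome 11, 54438199 to 54518235, plus strand), was at 62.2, 115.4, 52.1 and 90.0 CPM across LKB1-deficient replicates 1 to 4, and 62.3, 57.2, 47.1 and 46.2 CPM across control replicates 1 to 4. LKB1-deficient replicates 2 and 4 stood above every control, while replicates 1 and 3 lay within the control range. This is a log2 fold change of 0.58 ± 0.23 (SE, adjusted p = 0.0950), or a ratio of 1.496 with an unadjusted 95% interval of 1.04 to 2.15. It was 0.10 (adjusted p = 0.7675) without LKB1-deficient replicates 2 and 4, 0.35 without LKB1-deficient replicate 2 alone, 0.26 with the trend on transcript length removed, and 0.74 without LKB1-deficient replicate 3, where the adjusted p was 0.0348. Fnip1 was lower than Prkag1 in each control library, but higher than Prkag1 in LKB1-deficient replicates 2 and 4. The ratio of Fnip1 to Flcn was 2.33, 4.17, 2.47 and 3.52 in LKB1-deficient replicates 1 to 4, and 2.45, 2.48, 1.79 and 1.85 in control replicates 1 to 4 by CPM.

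The sum of the 5 genes listed for mast cells was highest in LKB1-deficient replicates 2 and 4, as Fnip1 was. Among the other libraries it did not follow Fnip1. The sum was 4.50, 14.3, 6.30 and 11.9 CPM across LKB1-deficient replicates 1 to 4, and 3.593, 4.225, 4.465 and 3.507 CPM across control replicates 1 to 4. Of these 5 listed genes 2, Kit and Mcpt8, passed the count filter and neither passed edgeR's test, though DESeq2 called Mcpt8 higher. The list does not settle which cell type gave these counts, and they are not taken as a sign of mast cells. Kit overlapped between the groups, at 2.04 ± 1.10 CPM in LKB1-deficient and 1.37 ± 0.323 CPM in control cells (adjusted p = 0.369 in edgeR). Mcpt8 averaged 3.26 ± 1.72 CPM in LKB1-deficient and 1.32 ± 0.490 CPM in control cells (SD, n = 4 each, adjusted p = 0.0511 in edgeR), and Ms4a2 averaged 1.42 ± 0.681 and 0.411 ± 0.113 CPM, with every LKB1-deficient library above every control for both. LKB1-deficient replicates 2 and 4 had 4.08 and 3.77 CPM of Cpa3 and the other 6 libraries at most 1.42 CPM, and Fcer1a was at 0 in 4 of the 8. The part of cells that express these genes in the Fnip1 values was not tested. LKB1-deficient replicates 2 and 4 were also the libraries farthest out on the first principal component.

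Fnip2, the paralog that can take the place of FNIP1, was at 3.66, 4.95, 2.83 and 2.97 CPM across LKB1-deficient replicates 1 to 4, and 2.16, 1.62, 0.984 and 2.34 CPM across control replicates 1 to 4. All LKB1-deficient libraries lay above all controls, on 11 to 24 counts per library, and the log2 fold change of 1.02 ± 0.34 (SE, adjusted p = 0.0532) did not pass. DESeq2 and limma-voom each called it higher. Fnip1 exceeded Fnip2 by 26.0 ± 7.05 times per kilobase in LKB1-deficient and 38.5 ± 13.8 times per kilobase in control cells (SD, n = 4 each).

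**Figure D4:**
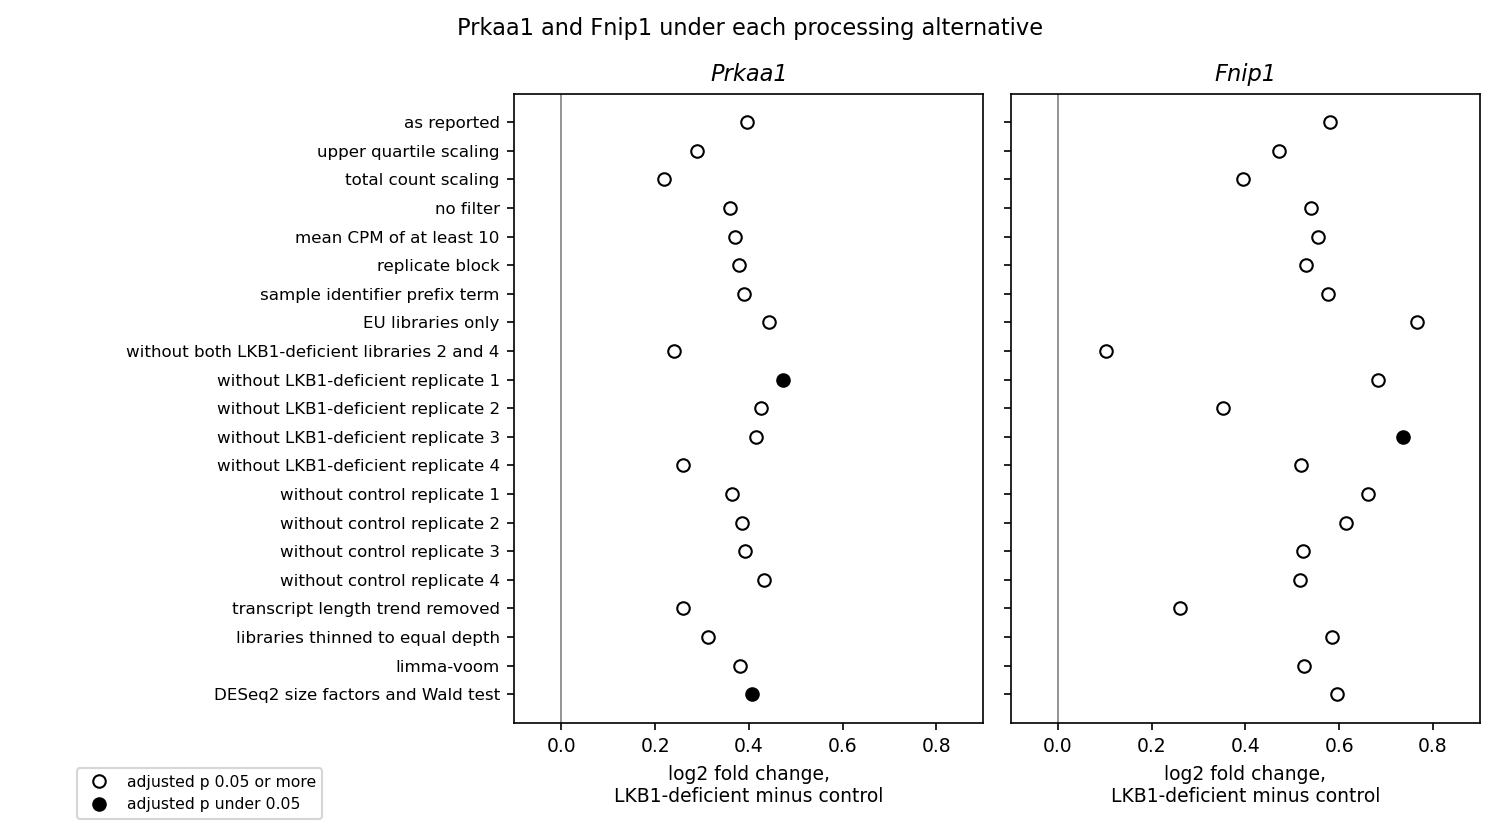
Log2 fold change, LKB1-deficient minus control, of Prkaa1 and Fnip1 (horizontal axes, vertical line at 0) as reported and under the 20 processing alternatives (rows). Filled points have an adjusted p under 0.05. Prkaa1 ranges from 0.22 to 0.47 with 2 filled points, and Fnip1 from 0.10 to 0.77 with 1.

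The genes whose expression profile over the 8 libraries lay nearest to each member were named by root mean square distance of centred log2 CPM. For Fnip1 they were Arhgef2 (distance 0.077), a guanine nucleotide exchange factor for RhoA, the zinc finger gene Zfp566 (0.086) and Tada2a (0.11), of the ATAC histone acetyltransferase complex. For Prkaa1 they included Ezr (0.066), which links actin to the membrane, and the replication licensing gene Cdc6 (0.083). For Flcn they were Rhot2 (0.044), of mitochondrial transport, the nucleoporin gene Ndc1 and Cxxc1. For Prkab1 they were Mettl3, Tor2a and Gla, for Prkab2 Cdc26, Skiv2l and Cep95, for Prkag1 Wdr83, Psma5 and Tmem251, and for Prkag2 Rps26, Mif and Rnf13, at distances of 0.056 to 0.10. Since these 8 libraries share their 2 groups and depths, the distances only describe likeness.

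Genes around the members were then counted by role. Of 8 genes for the kinases and partners that activate AMPK, 7 were tested and none passed with edgeR (median log2 fold change -0.034, against 0.0042 for all tested genes). Camkk2, encoding the calcium-dependent kinase, was at 37.4 ± 6.32 CPM in LKB1-deficient and 29.7 ± 6.28 CPM in control cells (adjusted p = 0.195), and Map3k7, encoding TAK1, at 107.0 ± 27.4 and 78.7 ± 4.06 CPM (adjusted p = 0.0868; SD, n = 4 each). DESeq2 and limma-voom called none of the 7 either, leaving out LKB1-deficient replicate 3 gave 1 higher and 2 lower calls, and upper quartile and total count scaling each called 1 lower. Unadjusted p-values were under 0.05 for 3 of them, Stradb, Cab39l and Map3k7, against 39.3% of all tested genes. Their directions differed, with log2 fold changes of -0.57 for Stradb, -0.31 for Cab39l and 0.44 for Map3k7. In edgeR the adjusted p was 0.0577 for Stradb and 0.106 for Cab39l.

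Among 23 listed AMPK substrates 21 were tested, of which 1 rose, 2 fell and 18 did not pass (median log2 fold change 0.036), where 12.4% of all tested genes rose and 10.1% fell. Hdac4, encoding a class IIa histone deacetylase, was at 37.98, 43.7, 55.4 and 31.5 CPM across LKB1-deficient replicates 1 to 4, and 18.4, 23.0, 18.0 and 16.9 CPM across control replicates 1 to 4. The groups were well apart (log2 fold change 1.148 ± 0.18, SE, adjusted p = 0.0052), and the call held under all 20 alternatives. Mff, the mitochondrial fission factor, fell to 91.3 ± 11.0 CPM in LKB1-deficient cells, against 133.7 ± 15.8 CPM in control cells (adjusted p = 0.0215), and Txnip, encoding an inhibitor of glucose uptake, fell to 87.1 ± 4.99 CPM, against 129.1 ± 15.4 CPM in control cells (adjusted p = 0.0141). Without both LKB1-deficient replicates 2 and 4 neither was called (adjusted p = 0.172 and 0.117), and the call of Mff also ended without LKB1-deficient replicate 2 or 4 or control replicate 3 or 4 alone (adjusted p at most 0.0660). Acaca, encoding acetyl-CoA carboxylase 1, the classical AMPK substrate, was at 28.5 ± 4.30 CPM in LKB1-deficient and 23.2 ± 1.06 CPM in control cells (adjusted p = 0.126).

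Of 19 genes of the folliculin, Rag and TFE axis, 18 were found under the listed symbol and 16 tested, with 2 lower, 14 not passing and no higher call in edgeR (median log2 fold change -0.27). Lower calls made up 10.1% and higher calls 12.4% of all tested genes. Limma-voom and DESeq2 each called 1 gene of the axis higher, Fnip2, and DESeq2 and total count scaling each called 4 lower. Lamtor2 and Lamtor5, subunits of the Ragulator that anchors the Rag GTPases to the lysosome, fell to 31.4 ± 9.27 CPM in LKB1-deficient cells, against 51.0 ± 7.52 CPM in control cells (adjusted p = 0.0388), and to 35.2 ± 6.86 CPM in LKB1-deficient cells, against 49.4 ± 4.04 CPM in control cells (adjusted p = 0.0433). Removing the trend on transcript length took these log2 fold changes to -0.29 and -0.15, against -0.69 and -0.49 as reported, and neither was then called. With a term for the sample identifier prefix neither was called (adjusted p = 0.0553 and 0.0549). No gene of the axis was called lower without LKB1-deficient replicate 2 or 4 or control replicate 1, 3 or 4, while leaving out control replicate 2 gave 1 lower call and leaving out LKB1-deficient replicate 1 gave 4. Tfeb was at 6.86 ± 2.37 CPM in LKB1-deficient and 10.7 ± 0.968 CPM in control cells (adjusted p = 0.0696), and Tfe3 at 17.5 ± 2.26 and 16.2 ± 1.10 CPM (adjusted p = 0.610; SD, n = 4 each).

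Of 20 listed targets of TFEB and TFE3, 18 were tested, with 4 lower, 14 not passing and no higher call in edgeR (median log2 fold change -0.26), against 10.1% lower and 12.4% higher calls among all tested genes. DESeq2 called 1 of them higher, Atp6v1a, a subunit of the vacuolar proton pump. Map1lc3b, encoding the autophagosome protein LC3B, fell to 30.1 ± 5.59 CPM in LKB1-deficient cells, against 46.7 ± 5.44 CPM in control cells (SD, n = 4 each, adjusted p = 0.0212). None of the list was called lower without both LKB1-deficient replicates 2 and 4, 1 without LKB1-deficient replicate 2 or 4 or control replicate 3 alone, 2 without control replicate 1 or 4 and 2 with the length trend removed.

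Of 8 genes of the PGC1 coactivator family and its partners, 7 were tested, with 3 higher, 4 not passing and no lower call in edgeR (median log2 fold change 0.12), against 12.4% higher and 10.1% lower calls among all tested genes. Pprc1, a PGC1-related coactivator, was at 69.5, 71.98, 57.6 and 86.3 CPM across LKB1-deficient replicates 1 to 4, and 37.9, 37.9, 40.6 and 44.0 CPM across control replicates 1 to 4. This gene rose (log2 fold change 0.83 ± 0.14, SE, adjusted p = 0.0060) and its call held under all 20 alternatives. Ppargc1b, encoding PGC1 beta, rose to 21.9 ± 6.18 CPM in LKB1-deficient cells, against 10.6 ± 3.97 CPM in control cells (adjusted p = 0.0332), and Esrra, encoding their nuclear receptor partner, to 26.0 ± 5.08 CPM, against 17.1 ± 1.76 CPM in control cells (adjusted p = 0.0278). The call of Esrra ended with upper quartile scaling (adjusted p = 0.0563), total count scaling (0.100) and in EU libraries only (0.102), each of which left 2 calls in the list. Only Pprc1 was called without both LKB1-deficient replicates 2 and 4, and 1 gene without LKB1-deficient replicate 4 or control replicate 2 or 3 alone. Ppargc1a, encoding PGC1 alpha, had no count in any library.

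**Figure D5:**
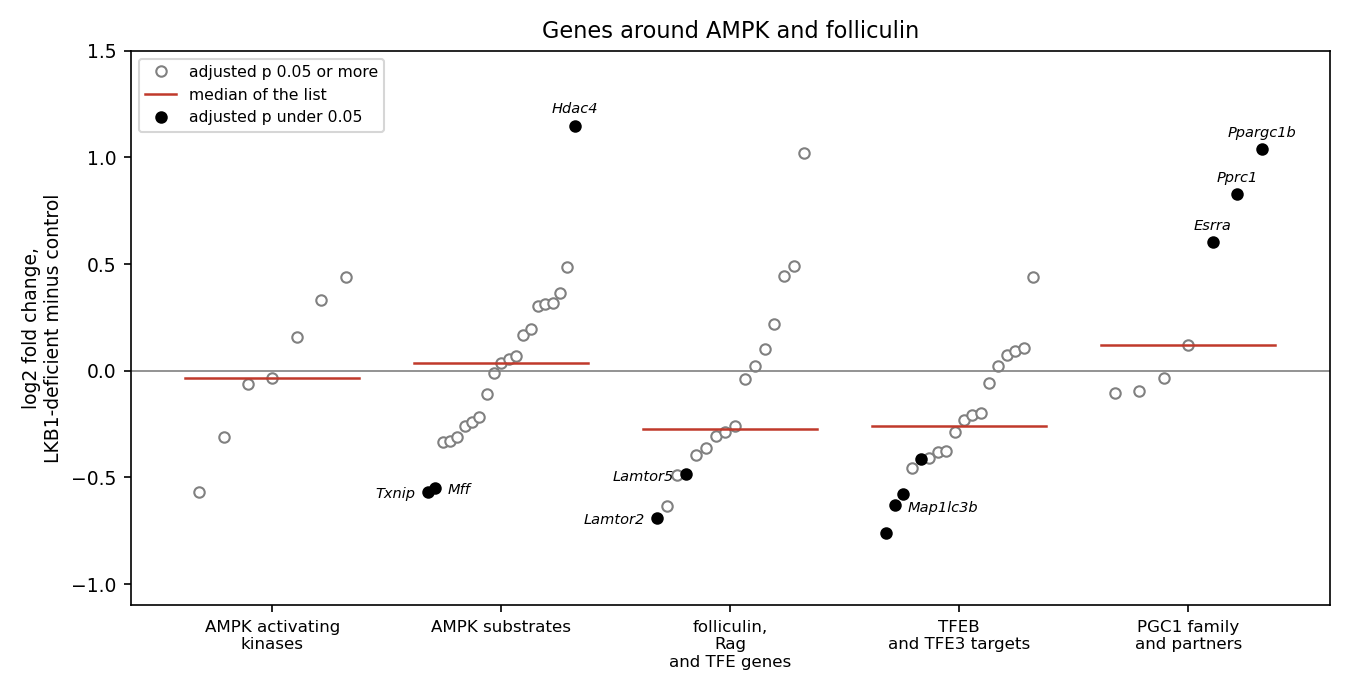
Log2 fold change, LKB1-deficient minus control (vertical axis, horizontal line at 0), of each tested gene in 5 lists around AMPK and folliculin. Filled points have an adjusted p under 0.05, some of them named, and red lines are list medians. Each list holds mostly open points, Hdac4 is the highest filled point at 1.148, and the filled points of the folliculin and TFE lists all lie below 0.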

How the data were processed

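Gene expression was measured in 8 mouse libraries, 4 per genotype, grouped by the titles. Per the labels' protocols, RNA was primed with barcoded oligo-dT, pooled, PCR-enriched and sequenced as strand-specific 3′ tags; molecular identifiers are not mentioned, so PCR copies may be counted. The deposited tables hold unnormalized read counts by gene symbol, from reads aligned with STAR to mm10 per the submitters' processing notes; the counting program, annotation and versions were not stated. The last 5 lines of each table are totals of unassigned reads and were dropped. Reads outside genes came to 12.1% to 17.5% and ambiguous reads to 0.382% to 0.552% of gene, ambiguous and unannotated counts.

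The counts were fitted with edgeR 4.0.16 in R 4.3.3: filterByExpr (minimum count 10, minimum total 15), TMM, the robust quasi-likelihood test without covariates, Benjamini-Hochberg adjustment over 10396 genes and a threshold of 0.05. CPM uses TMM-scaled library sizes. SE is the size of the log2 fold change over the root of F, and 95% intervals use the t distribution with the fit's degrees of freedom. The test was also run on simulated counts with known changes, and the outcome is not reported here. No libraries of a group were duplicates: their chi-square values per degree of freedom were 10.9 to 46.25.

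Positions and lengths are from GENCODE vM21 (GRCm38, also called mm10). Alternatives used DESeq2 1.42.0, limma 3.58.1, a lowess span of 0.3 for the length trend and thinning to 3454388 counts. The members and lists were chosen with earlier results of these data known. Named were all members, the isoforms Prkag3 and Fnip2, up to 3 called genes per list and direction with Stk11, Acaca, Tfeb and Tfe3, and the 3 nearest profiles per member, some of which are not reported here; Camkk2, Map3k7 and 2 other AMPK-activating genes, Atp6v1a and single cell type markers were named after their values were seen.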

Additional observations from a re-analysis of the deposited data

Results flagged for a closer look

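In groups of 4 libraries, a gap to the nearest other library above Dixon's critical value of 0.829 of the range was found for 2 of 40 groups tested, and chance alone flags about 1 in 20. The share of Prkag2 in gamma counts was 24.3% in LKB1-deficient replicate 3, against 15.6% to 16.6% in the other LKB1-deficient libraries. The ratio of gamma to alpha CPM was 2.746 in control replicate 2, against 3.38 to 3.50 in the other controls. No cause was tested for either.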

How the results depend on the processing

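Over 20 alternatives, Prkab1, Prkag1 and Prkag2 kept a negative log2 fold change and no call. Prkaa1 was 0.41 and called with DESeq2, the only member then called (1 member), and 0.26 to 0.47 with a library left out. Fnip1 was 0.35 to 0.74 with a library left out, where 0 to 1 members were called. Prkab2 was 0.075 in EU libraries only, 0.0086 at equal depth, and -0.18 to 0.032 with a library left out. Flcn was -0.092 with upper quartile scaling, -0.16 with total count scaling, -0.026 without a filter, -0.0135 at a mean CPM of at least 10, -0.011 in EU libraries only, -0.068 without both LKB1-deficient replicates 2 and 4, -0.0048 without the length trend, -0.0033 with limma-voom and -0.034 to 0.086 with a library left out. Of 60 recomputed isoform shares 59 moved by less than 1 SD, and Prkab2 in control cells was 23.9% of beta counts at equal depth. Genes called higher numbered 829 with total count scaling, 162 without both LKB1-deficient replicates 2 and 4, and 560 to 1472 with a library left out. Genes called lower numbered 666 in EU libraries only, 98 without both of those libraries, and 441 to 1353 with a library left out. Fits that leave out libraries use fewer samples. The labels share replicate numbers without saying what they pair, and same-numbered libraries deviated with correlations of -0.25, 0.29, 0.30 and -0.086, so they were not taken as pairs, nor did each correlate best with its own number. With a replicate block 1075 genes were higher and 827 lower and no member was called, and lower calls numbered 1 in the folliculin, Rag and TFE list and 2 among the TFEB and TFE3 targets, with 2 higher calls in the PGC1 list. A within-prefix test could not be made for ET, which has 1 library per group. Lower depth in the LKB1-deficient libraries limits Prkaa2, Prkab2 and Fnip2 most, where 3 counts correspond to 0.472 to 0.874 CPM in LKB1-deficient and 0.227 to 0.390 CPM in control libraries.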

Other observations

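Fnip1 lies beside the cytokine genes Csf2 and Il3 on chromosome 11, a position looked at after the values were seen. Counted from the start of Fnip1, the annotated start of Csf2 is at -188.5 kb, that of Il3 at -170.9 kb, that of the acyl-CoA synthetase gene Acsl6 at -134.4 kb and that of Rapgef6, an exchange factor for Rap GTPases, at 84.65 kb. Csf2, Il3 and Acsl6 rose in LKB1-deficient cells (log2 fold changes 3.86, 3.57 and 2.10, adjusted p = 0.0038, 0.0034 and 0.0061), and without LKB1-deficient replicates 2 and 4 these were 2.57, 3.14 and 1.79 (adjusted p = 0.0303, 0.0372 and 0.0620), so that Acsl6 was no longer called. The next gene downstream, Rapgef6, did not pass (0.64, adjusted p = 0.133, and 0.059 without those libraries). Of the other tested genes within 500 kb, the clone-named 4933405E24Rik was higher (3.11, adjusted p = 0.0032). Lyrm7 was lower (-0.83, adjusted p = 0.0134), but not called without those libraries (adjusted p = 0.0904). P4ha2, Cdc42se2 and Hint1 did not pass (adjusted p = 0.221, 0.718 and 0.680). Meikin, between Acsl6 and Fnip1, had no count. Over all tested genes 12.4% were higher and 10.1% lower. Rapgef6 was at 111.4, 283.5, 144.3 and 228.1 CPM across LKB1-deficient replicates 1 to 4, and 147.6, 153.9, 101.5 and 89.8 CPM across control replicates 1 to 4. Like Fnip1, it stood above every control in LKB1-deficient replicates 2 and 4 only. Its log2 fold change was 0.16 (adjusted p = 0.590) with the trend on transcript length removed. A gene outside this region, Kmt2c, also stood above every control in those 2 libraries only, and was named after its values were seen. It lies on chromosome 5, with its start 398.1 kb from that of Prkag2. Kmt2c was at 74.8, 126.5, 68.3 and 115.1 CPM across LKB1-deficient replicates 1 to 4. In the control libraries Kmt2c was at 30.7 to 76.4 CPM. Unlike Fnip1 and Rapgef6, it was called higher in edgeR (0.97, adjusted p = 0.0425). Whether these genes share a cause was not tested.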
